A study of Mus musculus with 10 samples.

Results

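The genes of the circadian clock were examined in muscle stem cells (MuSCs) activated by injury, with and without Trpm7, the gene of an ion channel fused to a kinase that conducts magnesium. The 10 genes, out of 24608 gene symbols in the count table, were the positive-arm genes Arntl, Npas2 and Clock, the negative-arm genes Nr1d1, Nr1d2, Per1, Per2 and Ciart, and the PAR bZIP genes Dbp and Tef. They were listed by symbol after being selected on their counts in this same genotype contrast, earlier results of which were known. The difference between genotypes is therefore described for them, with no test.

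MuSCs were sorted from adult C57BL6 mice 3 days after cardiotoxin (CTX) injury of the muscle, and 3′-end RNA-seq libraries with molecular identifiers were made from 3000 sorted cells each. Control mice carried wild-type Trpm7 (Trpm7+/+), whereas in Trpm7 cKO mice both Trpm7 alleles were floxed (Trpm7 flox/flox). Mice of both genotypes carried Pax7 CreERT2/+ and the reporter Rosa26 YFP, and both received 5 daily injections of tamoxifen, so that the controls share the inducible Cre and the drug. Cre was driven by Pax7, which limits deletion to cells that express Pax7 and their progeny. There were 5 libraries per genotype, numbered 1 to 5 in the labels. Neither the labels nor the methods give the time of day at which cells were collected in each genotype, and its part in the values of these genes was not tested.

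In the mammalian clock, BMAL1, the product of Arntl, pairs with CLOCK or NPAS2 and activates genes through E-boxes, among them the Per and Cry genes, Nr1d1, Nr1d2, Ciart, Dbp and Tef. PER and CRY proteins repress that activation, CIART (also called CHRONO) represses it as well, and the nuclear receptors REV-ERBα and REV-ERBβ, encoded by Nr1d1 and Nr1d2, repress Arntl, Npas2 and Clock through ROR response elements, which ROR receptors activate. The PAR bZIP factors DBP, TEF and HLF carry the rhythm to D-box genes. In cells with a running clock, transcripts of the arms therefore peak at different times of day.

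Promoter windows show which of these circuits can be read in the DNA of the genes themselves. RefSeq windows on GRCm38.p6, each running from 250 bases before to 50 bases after an annotated start, were found for 9 of the 10 genes (14 windows). Per2 had none. Both strands were searched for the E-box CACGTG, the E′-box CACGTT, the ROR element cores TAGGTCA and TGGGTCA, the D-boxes TTATGTAA and TTACGTAA, and the cAMP response element TGACGTCA. The stretches below are shown because they carry the letters through which the 2 arms are known to act on each other, with the motif in capitals.
Arntl, ROR element core, chr7:113207530-113207558, plus strand: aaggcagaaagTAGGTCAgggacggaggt
Nr1d1, E′-box read on the opposite strand, chr11:98775389-98775416, minus strand: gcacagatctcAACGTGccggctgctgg
Per1, E-box, chr11:69098772-69098799, plus strand: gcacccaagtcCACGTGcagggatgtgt
Ciart, E-box, chr3:95882270-95882297, minus strand: gcagggggaggCACGTGcagaaccgcac
Tef, E-box, chr15:81802535-81802562, plus strand: tgctgtggctcCACGTGctgcagctggc
The Arntl core began 30 bases after the annotated start. The Nr1d1 E′-box began 28 bases before the start, the Per1 E-box 166 bases before it and the Ciart E-box 58 bases before it. Ciart held 3 E-boxes in its window, the others lying 116 and 44 bases before the start. Tef held an E-box before each of its 2 annotated starts, at 127 and 138 bases. For comparison, CACGTG was found in 7.15% of all 32851 promoter windows, CACGTT in 4.68% and TAGGTCA in 2.61%. No window of these genes held TGGGTCA (3.98% of all windows), TTATGTAA (0.938%), TTACGTAA (0.119%) or TGACGTCA (1.79%). A match is a description of letters in a short window, and its absence says nothing of the regulator.

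The libraries differed in depth by genotype. Controls held 914353 to 1097707 counts (median 995135) and Trpm7 cKO libraries 205980 to 581117 (median 524957), although the number of sorted cells was the same. In bulk libraries, fewer cells of a type and less RNA per cell cannot be told apart. Each library was also amplified without pooling, so differences in capture and sequencing enter these totals too. The part of each was not tested. Values are given as normalized CPM, that is counts relative to the library's total (CPM) after TMM scaling, which holds the bulk of genes at equal level between libraries. Trpm7 itself, measured by counts at its 3′ end, had 76.9 ± 9.97 normalized CPM in controls and 71.4 ± 22.0 in Trpm7 cKO (mean ± SD, n = 5 each; log2 fold change −0.09 ± 0.20 SE; edgeR quasi-likelihood adjusted p = 0.723), and the position of the floxed exon is not given in the sources used here, so that these counts do not check the deletion. Pax7 is the defining marker of MuSCs, and it was detected in all libraries, with 206 ± 33.7 normalized CPM in controls and 474 ± 122 in Trpm7 cKO. Myod1, the factor that marks activated MuSCs, was detected in all libraries too, and fell from 744 ± 111 to 181 ± 36.6 (log2 fold change −2.01 ± 0.16 SE; edgeR adjusted p = 1.84e-08). The names of Trpm7 cKO libraries 4 and 5 share a number whose meaning is not stated. Where nothing further shows separate animals, spreads and p-values measure the variation between these libraries.

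All 10 clock genes stood higher in Trpm7 cKO than in control MuSCs by mean normalized CPM, positive and negative arms together, although Clock was lower when libraries were left unscaled (log2 fold change −0.55). Of the 9 that passed the filter on low counts, 9 were called higher in Trpm7 cKO at an edgeR adjusted p under 0.05, a call made for 24.6% of the 7753 genes tested. With the further threshold of a log2 fold change above 1.5, which 8.49% of tested genes met upward, 7 of the 9 were called, Clock and Nr1d2 being left out. In 8 of the 9, every Trpm7 cKO library was above every control library, which held for 16.6% of tested genes, and Clock was the exception. Arntl, Npas2, Per1 and Ciart were too low in controls to pass the filter on control libraries alone, and passed it through Trpm7 cKO. The counts of called and non-overlapping genes are thus partly set by the filter. They describe genes listed with the contrast known, and nothing is read from them. The median log2 fold change was 1.78 over the 3 positive-arm genes and 2.63 over the 6 tested negative-arm and PAR bZIP genes, against −0.01 over all tested genes. Ranked by log2 fold change among the 7753 tested genes, Nr1d1 stood 10 from the top, Npas2 26, Ciart 181, Per1 197, Tef 228, Arntl 479, Per2 568, Nr1d2 687 and Clock 1883. Per2, at 1.63, lay just inside the larger fold threshold and Nr1d2, at 1.45, just outside it.

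**Figure D1:**
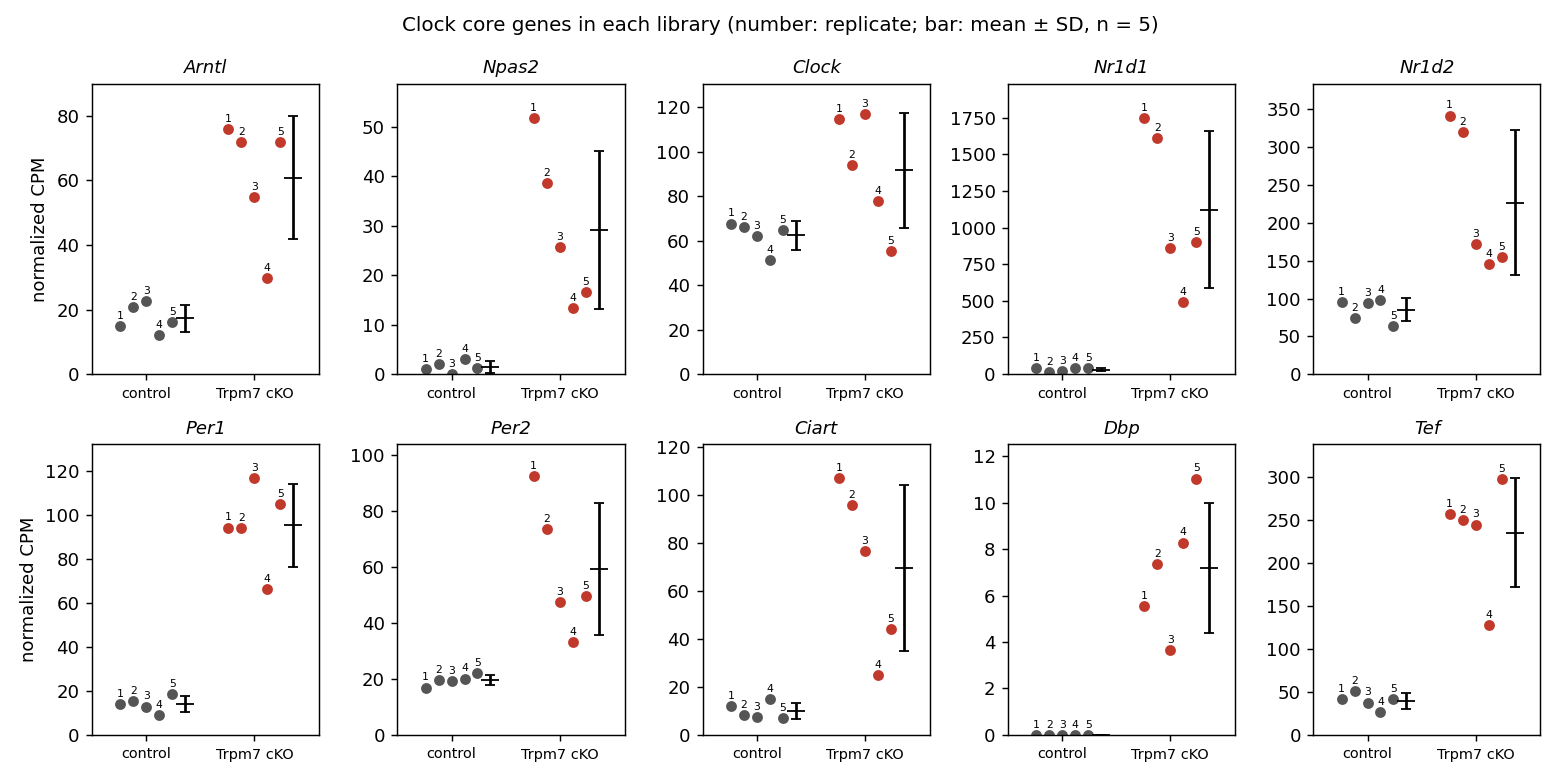
Normalized CPM (vertical axis, a separate linear scale from 0 in each panel) of the 10 clock genes in each of 5 control (grey) and 5 Trpm7 cKO (red) libraries, numbered by replicate, with the mean ± SD as a bar. Trpm7 cKO libraries lie above all controls in every panel but Clock, which also turned lower without scaling, and Trpm7 cKO replicate 4 is the lowest of its group for 8 of the 10 genes.

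Within the positive arm, Arntl (ENSMUSG00000055116, chr7:113207465-113314126, plus strand, GRCm38) encodes BMAL1, the partner shared by CLOCK and NPAS2. In control libraries 1 to 5 it measured 14.9, 20.7, 22.5, 12.05 and 16.2 normalized CPM, and in Trpm7 cKO libraries 1 to 5 it measured 75.8, 71.8, 54.8, 29.8 and 71.7. The groups did not overlap, and Trpm7 cKO replicate 4 came nearest to the controls. The means were 17.3 ± 4.27 and 60.8 ± 19.1 (SD, n = 5), a log2 fold change of 1.78 ± 0.27 SE.

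Npas2 (ENSMUSG00000026077, chr1:39193731-39363236, plus strand) encodes the paralog of CLOCK that can replace it at BMAL1's side. Controls held 1, 2, 0, 3 and 1 counts of it, and Trpm7 cKO libraries 28, 21, 7, 8 and 3. Npas2 was thus almost absent from the deeper control libraries and was counted in every one of the shallower Trpm7 cKO libraries. As normalized CPM, that came to 1.45 ± 1.14 against 29.2 ± 16.0, with 13.3 the lowest Trpm7 cKO value and 3.01 the highest control value. Summed over each group, 67 counts stood against 7, a ratio of rates of 21.3 with a 95% exact interval of 9.78 to 55.0 that covers counting error only. The fitted log2 fold change, 4.24 ± 0.51 SE, was the largest of the positive arm.

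Clock (ENSMUSG00000029238, chr5:76209868-76304792, minus strand), whose product is BMAL1's usual partner, had the smallest difference. Its normalized CPM was 67.6, 66.1, 62.2, 51.2 and 64.8 in controls and 115, 93.9, 117, 77.9 and 55.2 in Trpm7 cKO. Here the groups overlapped, because Trpm7 cKO replicate 5 lay within the control range. The fitted log2 fold change was 0.59 ± 0.18 SE, and it became 0.47 without Trpm7 cKO replicate 1, at which Clock no longer met the call. Scaling on muscle stem cell marker genes gave 0.39 and also ended it. Within single libraries, the log2 ratio of Arntl to Clock counts was −1.82 ± 0.28 in controls and −0.60 ± 0.65 in Trpm7 cKO.

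In the negative arm, Nr1d1 (ENSMUSG00000020889, chr11:98767932-98775333, minus strand), the heme-sensing repressor REV-ERBα, showed the largest difference of the 9 fitted genes. Controls held 40, 14, 18, 40 and 37 counts of it, whereas Trpm7 cKO libraries, with fewer counts in all, held 946, 874, 235, 296 and 163. Scaled, these were 39.8, 14.5, 19.3, 40.2 and 42.8 normalized CPM in controls and 1748, 1608, 859, 490.4 and 899 in Trpm7 cKO. Even unscaled, the lowest Trpm7 cKO count was above the highest control count, although that library was the shallowest of the series. The means were 31.3 ± 13.3 and 1121 ± 535, the fitted log2 fold change 5.16 ± 0.43 SE, which is 35.8-fold. Controls varied in Nr1d1 by a coefficient of variation of 42.6%, beyond the 18.3% that counting alone would give. Control replicates 2 and 3 had the lowest Nr1d1 and the highest Arntl of their group.

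Nr1d1 and the thyroid hormone receptor gene Thra converge at their 3′ ends on opposite strands. The last exon of Nr1d1 (chr11:98767932-98768419) shares 263 bases with a Thra exon (chr11:98768157-98769006), and the strand setting used in counting is not given in the sources used here, so reads from those bases could have been assigned to either gene or dropped. Thra had 23.1 ± 5.21 normalized CPM in controls and 82.1 ± 28.4 in Trpm7 cKO (log2 fold change 1.73 ± 0.25 SE; edgeR adjusted p = 1.31e-05). The log2 ratio of Nr1d1 to Thra counts within a library was 0.33 ± 0.95 in controls and 3.66 ± 0.76 in Trpm7 cKO, so Nr1d1 differed by more than its neighbour. Thra missed the call without scaling (0.51) and when the log2 summed level of leukocyte markers entered the fit as a covariate (1.57).

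Nr1d2 (ENSMUSG00000021775, chr14:18204054-18239127, minus strand) encodes REV-ERBβ, which overlaps REV-ERBα in function. It measured 95.5, 74.3, 94.4, 97.4 and 63.7 normalized CPM in controls against 342, 320.2, 172, 146 and 155 in Trpm7 cKO. Trpm7 cKO replicates 1 and 2 stood well above replicates 3 to 5, and all 5 were above the controls. Its log2 fold change was 1.45 ± 0.23 SE (85.0 ± 15.2 against 227 ± 95.9), a smaller difference than that of its paralog.

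Per1 (ENSMUSG00000020893, chr11:69095217-69109960, plus strand) and Per2 (ENSMUSG00000055866, chr1:91415982-91459324, minus strand) encode the period proteins, which carry CRY into the nucleus and inhibit CLOCK–BMAL1. Per1 measured 13.9, 15.5, 12.9, 9.03 and 18.5 normalized CPM in controls and 94.2, 93.9, 117, 66.3 and 105 in Trpm7 cKO. For Per2 the controls lay close together at 16.9, 19.6, 19.3, 20.1 and 22.0, while Trpm7 cKO libraries spread over 92.4, 73.6, 47.5, 33.1 and 49.7. Neither gene's groups overlapped, and Per1 varied less among Trpm7 cKO libraries than Per2 did (coefficients of variation 19.7% and 39.7%). The log2 fold change was 2.72 ± 0.22 SE for Per1 (means 14.0 ± 3.49 and 95.2 ± 18.7) and 1.63 ± 0.26 SE for Per2 (means 19.6 ± 1.82 and 59.3 ± 23.5).

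Ciart (ENSMUSG00000038550, chr3:95878503-95882251, minus strand), a repressor that binds BMAL1, measured 11.9, 8.26, 7.51, 15.1 and 6.95 normalized CPM in controls and 107, 95.7, 76.7, 24.9 and 44.1 in Trpm7 cKO. The lowest Trpm7 cKO library, replicate 4, was above the highest control. Means of 9.94 ± 3.46 and 69.7 ± 34.6 gave a log2 fold change of 2.81 ± 0.36 SE.

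Both PAR bZIP genes, which translate the core rhythm to D-box targets, were also higher. Tef (ENSMUSG00000022389, chr15:81802421-81826863, plus strand) measured 41.8, 50.6, 37.5, 26.1 and 41.7 normalized CPM in controls against 257, 250.3, 245, 128 and 298 in Trpm7 cKO, a log2 fold change of 2.54 ± 0.21 SE. Its raw counts did not overlap either, at 26 to 49 in controls and 54 to 139 in Trpm7 cKO. Dbp (ENSMUSG00000059824, chr7:45705088-45710203, plus strand) had no count in any control library and 3, 4, 1, 5 and 2 counts in Trpm7 cKO, where its normalized CPM averaged 7.18 ± 2.79. Dbp fell under the filter on low counts and was left out of the fit. Set against a limit of 3 counts over the whole control group, which allows up to 0.629 normalized CPM, its rate in Trpm7 cKO was 11.1-fold higher, and the lower end of the exact 95% interval of the ratio, for counting error alone, was 7.98. The last 500 bases of the Dbp transcript lie wholly within an exon of Sphk2, a sphingosine kinase gene on the opposite strand, so that reads of both genes may not be separable here. Sphk2 had a log2 fold change of 0.81 ± 0.35 SE (edgeR adjusted p = 0.0615).

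Ratios of counts within a library do not depend on how libraries are scaled, and 3′-end counts record each molecule once whatever its length. The log2 ratio of summed counts of the 7 negative-arm and PAR bZIP genes to those of the 3 positive-arm genes (1 count added to each sum) ran from 1.03 to 1.63 in controls (1.29 ± 0.23) and from 2.87 to 3.57 in Trpm7 cKO (3.24 ± 0.32), a difference of 1.95, or 3.86-fold. Nr1d1 supplied much of it, making up 11.1% ± 4.62 of all counts of the 10 genes in controls and 54.4% ± 5.84 in Trpm7 cKO. Without Nr1d1 the ratio was 1.05 ± 0.18 in controls (0.89 to 1.33) and 1.91 ± 0.19 in Trpm7 cKO (1.73 to 2.16), a smaller difference of 0.86. Clock made up a large share of the other sum, with 76.99% ± 3.11 of positive-arm counts in controls and 51.1% ± 10.53 in Trpm7 cKO. With Clock left out of the positive arm, the ratio of all 7 genes to Arntl and Npas2 was 3.36 ± 0.36 and 4.27 ± 0.15, a difference of 0.92. With both Nr1d1 and Clock left out it was 3.11 ± 0.28 in controls and 2.94 ± 0.15 in Trpm7 cKO, a difference of −0.17, and the groups overlapped. The higher ratio of the negative arm thus rested on Nr1d1 and Clock, and the sums without them were chosen after seeing the data.

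For each Arntl count there were 2.67, 0.70, 0.857, 3.33 and 2.64 Nr1d1 counts in controls and 23.1, 22.4, 15.7, 16.4 and 12.5 in Trpm7 cKO. On the log2 scale this ratio averaged 0.73 ± 1.00 and 4.07 ± 0.40, a difference of 3.34, or 10.1-fold. Controls fell into a low pair, replicates 2 and 3, and a higher trio, whereas all Trpm7 cKO libraries lay above both.

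**Figure D2:**
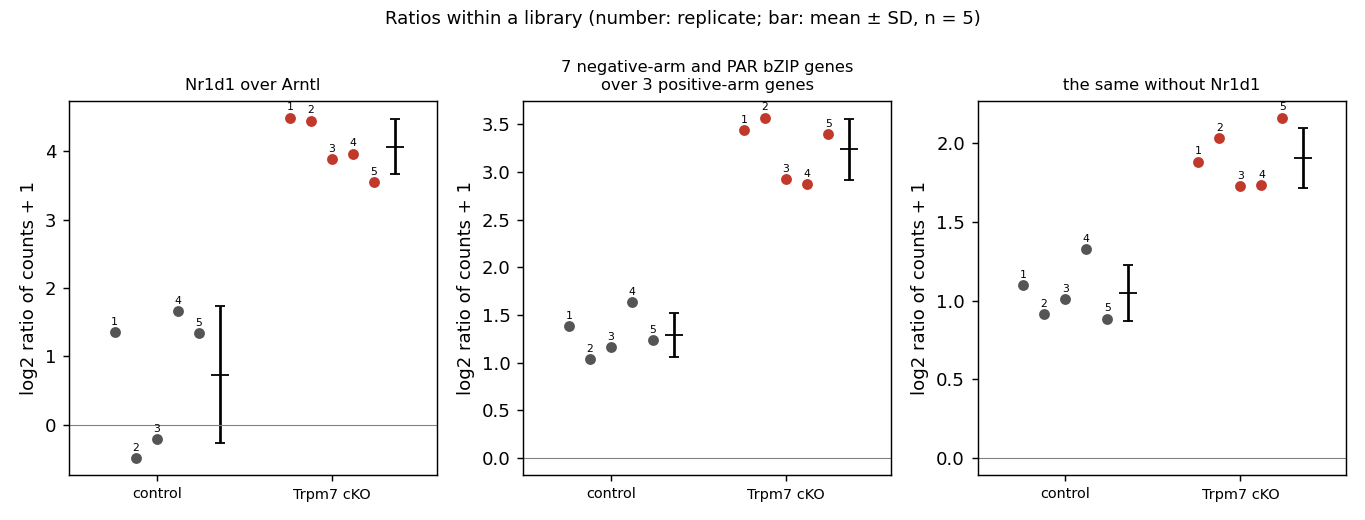
Log2 ratios of counts within each library (vertical axes, 1 count added to both sides), for Nr1d1 over Arntl, for the 7 negative-arm and PAR bZIP genes over the 3 positive-arm genes, and for the same without Nr1d1. Grey points are control and red points Trpm7 cKO libraries, numbered by replicate, with the mean ± SD as a bar. The groups do not overlap in any of the panels, the Nr1d1 to Arntl ratio reaching at most 1.66 in controls and at least 3.55 in Trpm7 cKO. Clock is not part of that ratio, whereas the sums in both other panels keep it.

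The 10 genes did not rank the libraries alike. Trpm7 cKO replicate 4 was the lowest of its group for 8 of the 10 genes and replicate 1 the highest for 6. After subtracting the genotype means, Pearson's r of log2 CPM over the 10 libraries, which differ in depth, was 0.88 between Npas2 and Ciart and 0.86 between Arntl and Tef, but 0.29 between Arntl and Nr1d1 and 0.10 between Npas2 and Per1. Among 6704 other genes of at least 20 CPM on average, those most like Nr1d1 by the same measure included Cog6 (r = 0.94) and Pak4 (0.90). Those most like Clock were Cdk7 (0.96), Btbd2 (0.95) and Srsf6 (0.94). These are the highest of 6704 values over 10 libraries, they were not tested, and nothing is read from them.

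The rest of the clock was read from lists of 38 further genes. These lists were also written with earlier results of the contrast known, so their adjusted p-values, taken over all 7753 tested genes, are no independent evidence. Among 11 other core genes, 7 passed the filter and 7 rose in Trpm7 cKO by edgeR's adjusted p, 6 of them by more than 1.5 on the log2 scale. Of all tested genes, 24.6% rose and 8.49% rose by more than 1.5. Cry2 and Hlf, at most 5.97 and 5.79 normalized CPM in controls, passed the filter only through Trpm7 cKO. Cry1 was also too low to pass it on control libraries alone. Among the other repressors, Cry2 rose by 3.00 ± 0.38 SE (edgeR adjusted p = 2.40e-06), with 3.97 normalized CPM on average in controls and 34.2 in Trpm7 cKO, and Cry1 by 1.70 ± 0.28 (adjusted p = 4.73e-05). Bhlhe40 and Bhlhe41, the DEC repressors that compete for E-boxes, rose by 2.80 ± 0.35 (edgeR adjusted p = 3.12e-05) and 1.54 ± 0.27 (adjusted p = 1.77e-04). Hlf, the remaining PAR bZIP gene, went from 14 counts over the controls to 121 over the Trpm7 cKO libraries, and rose by 4.17 ± 0.51 on the log2 scale (edgeR adjusted p = 5.09e-06).

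Genes that act on the same elements rose as well. Rora, whose receptor activates the elements that REV-ERBs repress, rose by 1.75 ± 0.24 SE (edgeR adjusted p = 8.16e-06). Nfil3, the repressor that opposes PAR bZIP factors at D-boxes, rose by 1.06 ± 0.21 (edgeR adjusted p = 3.28e-04), a direction that turned without scaling (−0.11). Per3, with 19 counts in controls and 30 in Trpm7 cKO, was too low to be fitted and had a ratio of rates of 3.51 (95% counting interval 1.91 to 6.60). Arntl2, a BMAL1 paralog, had no count in controls and 11 in Trpm7 cKO. Rorb (0 and 1 counts) was barely detected in either genotype. Cry2 and Hlf kept their call under all 19 alternatives of processing. The alternatives reuse the same libraries, and both genes passed the main filter only through Trpm7 cKO, so nothing is read from that. Cry1, Bhlhe41 and Rora missed their call without scaling. Bhlhe40 (3.07, adjusted p = 0.0544) and Nfil3 (1.68, adjusted p = 0.0682) missed it in the edgeR fit with the leukocyte covariate, at folds no smaller than without it.

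**Figure D3:**
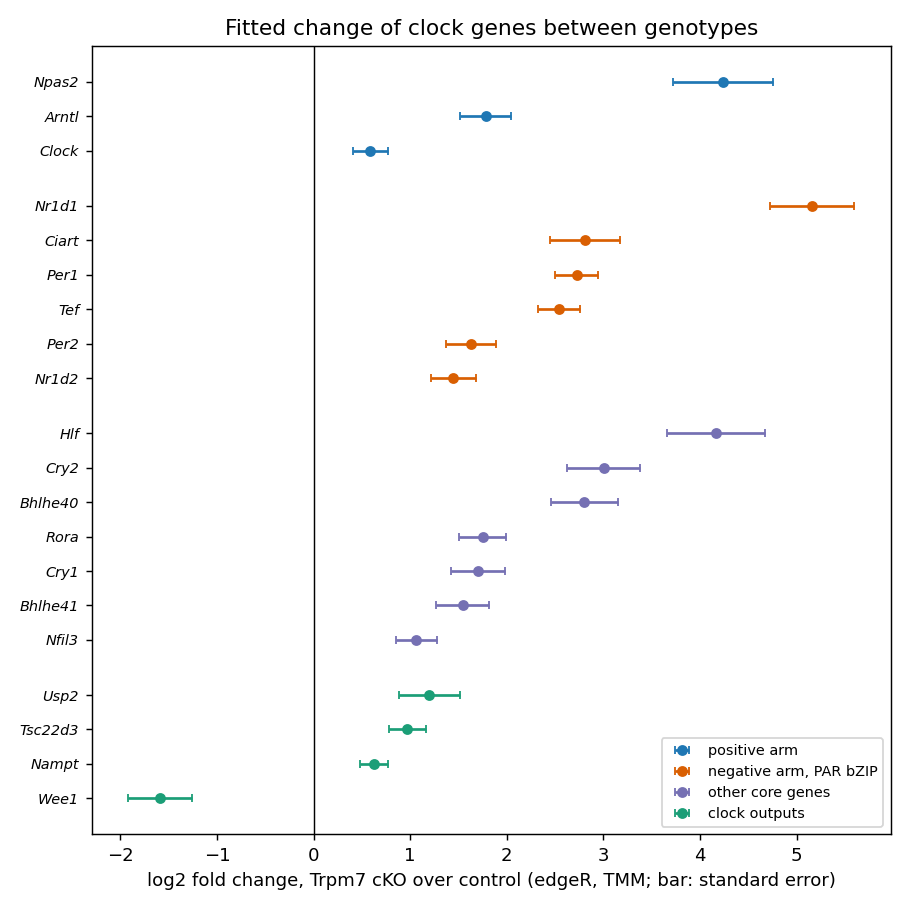
Fitted log2 fold change of Trpm7 cKO over control (horizontal axis, bars ± 1 SE, 5 libraries per genotype) for the clock genes that passed the filter, coloured by positive arm, negative arm and PAR bZIP, other core genes and outputs. All but Wee1 (−1.59) lie above 0, with Nr1d1 (5.16), Npas2 (4.24) and Hlf (4.17) farthest out, while Clock, Nfil3, Usp2, Tsc22d3 and Nampt turned below 0 without scaling.

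Genes known as clock outputs changed in both directions. Of 5 listed, 4 were tested, 3 rose and 1 fell, where 24.6% of all tested genes rose and 24.1% fell. Usp2, a deubiquitinase gene with rhythmic expression in many tissues, rose by 1.20 ± 0.32 SE (edgeR adjusted p = 0.00436), Tsc22d3 (GILZ) by 0.97 ± 0.19 (adjusted p = 3.18e-04) and Nampt, of NAD synthesis, by 0.62 ± 0.15 (adjusted p = 0.00162), and all 3 turned lower without scaling. Wee1, a kinase gene that restrains entry into mitosis and is a known E-box target, fell by 1.59 ± 0.33 (edgeR adjusted p = 5.64e-04), and fell by 2.38 when Trpm7 cKO replicate 4, its highest library of that group, was left out. Its normalized CPM was 61.7, 48.5, 61.1, 76.3 and 44.0 in controls and 9.24, 9.20, 10.96, 41.4 and 22.1 in Trpm7 cKO, so the groups did not overlap. With the leukocyte covariate none of these 4 genes met the call in edgeR, Usp2 (1.88, adjusted p = 0.175) and Wee1 (−3.04, adjusted p = 0.0771) at larger fitted changes, Nampt (0.17, adjusted p = 0.854) and Tsc22d3 (−0.068, adjusted p = 0.966) at smaller ones. Tspan4 had 6 and 4 counts and was not tested.

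Kinases, ubiquitin ligases and cofactors that act on clock proteins also changed in both directions. Of 22, 19 were tested, 6 rose, 3 fell and 10 did not pass the test, with a median log2 fold change of 0.24. Of all tested genes, 24.6% rose and 24.1% fell, so these counts lie near the shares over all genes and nothing is read from them. Crebbp, a histone acetyltransferase, rose by 0.90 ± 0.20 SE (edgeR adjusted p = 8.30e-04), and turned lower without scaling. Wdr5, of histone methyltransferase complexes, fell by 1.14 ± 0.20 (edgeR adjusted p = 8.38e-05) and Csnk2a1, a casein kinase subunit, by 0.77 ± 0.14 (adjusted p = 1.30e-04). The remaining gene that fell, Tipin of the replication fork, was named after its value was seen (−0.58 ± 0.15; edgeR adjusted p = 0.00342). Over all 38 further genes, 16 of 30 tested rose and 4 fell, where 24.6% of all tested genes rose and 24.1% fell, and their median log2 fold change was 0.50. That split rested on the scaling, since 3 rose and 13 fell without it, and with the leukocyte covariate 5 were called in all (Cry1, Cry2, Bhlhe41, Rora and Hlf, all higher).

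Per1 and Per2 are known targets of the glucocorticoid receptor, and a list of 10 glucocorticoid-responsive genes was read beside them. Of the 9 tested, 8 rose and 1 fell, where 24.6% of all tested genes rose and 24.1% fell, and the median log2 fold change was 1.65. The 8 include Tsc22d3, which is on both lists and was also counted among the clock outputs above. Cebpd, a transcription factor gene of the acute response, rose by 3.66 ± 0.28 SE (edgeR adjusted p = 8.33e-08) and Mt2, a metallothionein gene, by 2.09 ± 0.25 (adjusted p = 4.76e-06). Nr3c1, the receptor gene itself, rose by 1.74 ± 0.18 (edgeR adjusted p = 3.08e-07), Klf9 by 1.72 ± 0.21 (adjusted p = 1.74e-06) and Dusp1, a MAP kinase phosphatase gene, by 1.65 ± 0.16 (adjusted p = 1.20e-07). Errfi1, a feedback inhibitor of the EGF receptor, rose by 1.05 ± 0.18 (edgeR adjusted p = 6.71e-05) and Fkbp5, a chaperone of the receptor, by 1.03 ± 0.26 (adjusted p = 0.00275), the direction of both turning without scaling. Sgk1 fell by 0.45 ± 0.13 (edgeR adjusted p = 0.00661) and was named after its value was seen. Cebpd kept its call under all 19 alternatives, which reuse the same libraries, so nothing is read from that. Cebpd was the only gene of the list called without scaling, and with the leukocyte covariate Cebpd, Nr3c1 and Errfi1 were called.

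Markers of other cells moved with the genotype, although the cells were sorted as YFP-positive. For uninjured muscle the methods also describe staining for CD45, CD31 and Sca-1, a gate against leukocyte, endothelial and fibroadipogenic cells, and whether it was used for these libraries is not given in the sources used here. All 20 tested of 26 leukocyte markers rose in Trpm7 cKO, where 24.6% of all tested genes rose. The filter keeps a gene that is high enough in 1 genotype, so markers low in controls were tested only where Trpm7 cKO was higher. Adgre1 is an example, with at most 5.79 normalized CPM in controls and at least 14.7 in Trpm7 cKO. Counts of risen markers of other cells are thus partly set by the filter, and nothing is read from them. Leukocyte markers summed to 414 to 675 normalized CPM in controls and 1492 to 6604 in Trpm7 cKO, with Cd3e and Cd79a at 0 in every control. Of fibroadipogenic markers 4 of 5 tested rose (sums of 1015 to 2050 and of 1564 to 3721), and of endothelial markers both of the 2 tested (6.43 to 56.7 and 110 to 568). Muscle stem cell markers stayed within a narrower range, 3062 to 3539 in controls and 2669 to 4475 in Trpm7 cKO. Of 11 tested, 5 were higher and 2 lower, against 24.6% and 24.1% of all tested genes.

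Set beside these sums, Nr1d1 varied as follows in Trpm7 cKO. Replicates 1, 3 and 5 had leukocyte sums of 3847, 3734 and 5949, and Nr1d1 of 1748, 859 and 899 normalized CPM. Replicate 2 had the lowest leukocyte sum (1492) and 1608 normalized CPM of Nr1d1, whereas replicate 4 had the highest sum (6604) and the lowest Nr1d1 of the group (490.4). The latter library was also the lowest in muscle stem cell markers (2669), as it was for 8 of the 10 clock genes. With the log2 leukocyte sum as a covariate, the median log2 fold change of the 9 fitted clock genes was 2.88. The sums did not overlap between genotypes (at most 675 in controls, at least 1492 in Trpm7 cKO). The covariate thus largely separates the genotypes, and this fit cannot tell genotype from leukocyte level. The call was made for 8 of them, Clock excepted, and for 4.71% of all tested genes upward, from which nothing is read. The part of other cells in these values was not tested.

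**Figure D4:**
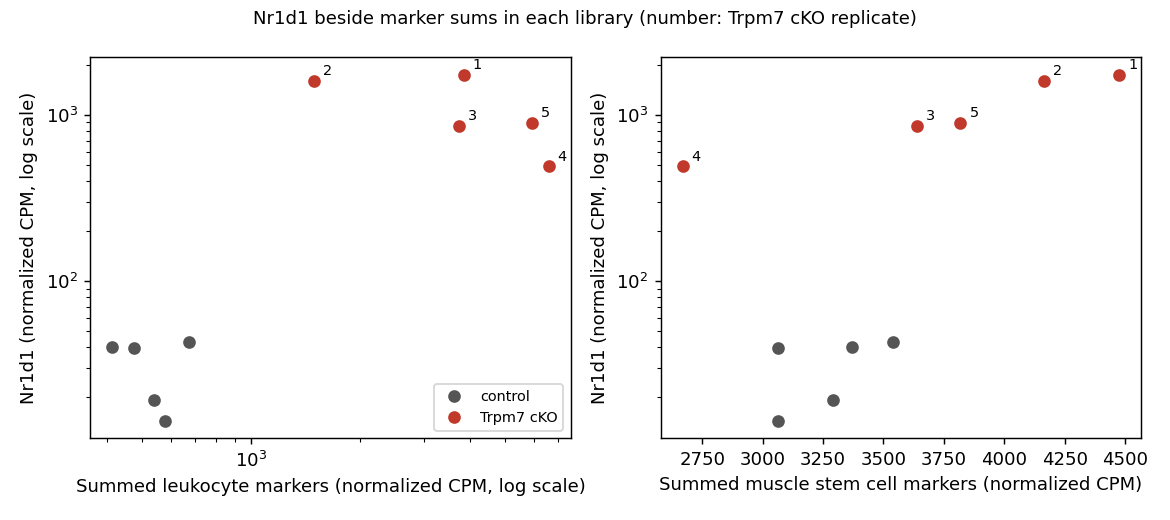
Nr1d1 (vertical axes, normalized CPM, log scale) in each library against the summed leukocyte markers (left, log scale) and the summed muscle stem cell markers (right, linear scale), both in normalized CPM. Grey points are the 5 controls and red points the 5 Trpm7 cKO libraries, numbered by replicate, and the Trpm7 cKO library lowest in Nr1d1, replicate 4 (490.4), is the highest in leukocyte markers (6604) and the lowest in muscle stem cell markers (2669).

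How far the clock genes stood apart depended on the scale. When libraries were left unscaled, as counts per 3000 sorted cells, the median over all tested genes was −1.15 on the log2 fold change scale, and over the clock genes it was 1.33. The difference in depth between genotypes enters every unscaled fold change, so a direction that turned without scaling includes that shift. On that scale 8 of the 9 were above 0, all 9 were above the median gene, and 5 were called, against 4.9% of all tested genes. Nr1d1 kept 4.07, Npas2 3.15, Ciart 1.67, Per1 1.54 and Tef 1.33, whereas Arntl had 0.62, Per2 0.50, Nr1d2 0.35 and Clock −0.55. As above, nothing is read from calls of genes selected on this contrast. Of all tested genes, 380 were called higher and 5162 lower on that scale, against 1908 and 1866 with TMM scaling.

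**Figure D5:**
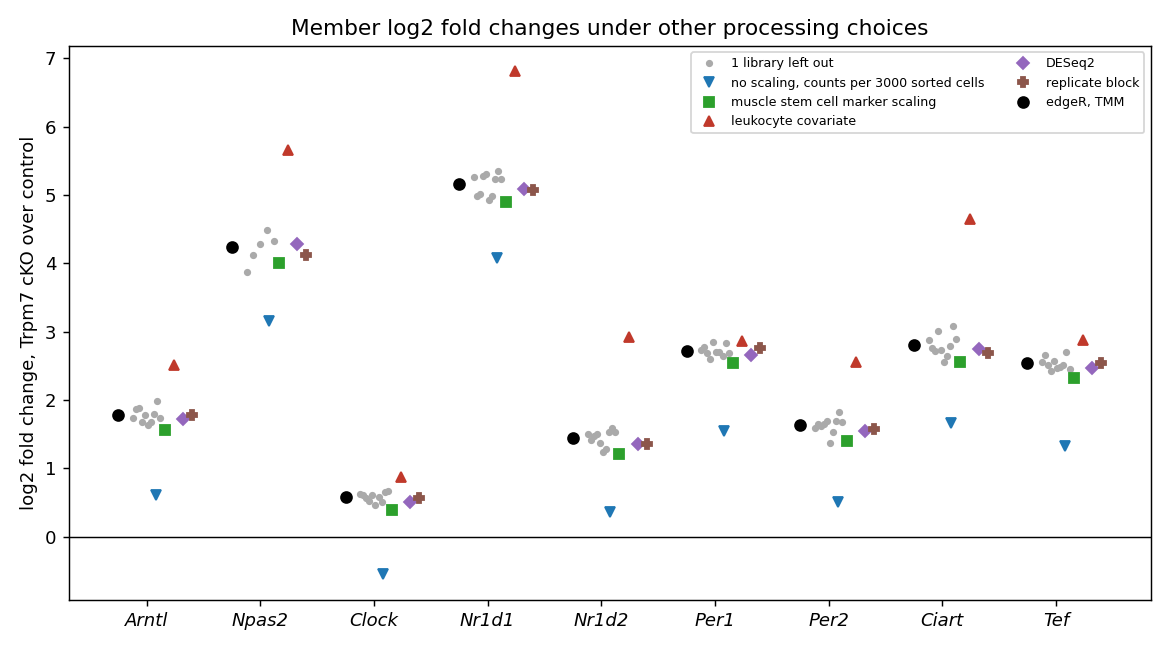
Log2 fold change of Trpm7 cKO over control (vertical axis) for the 9 fitted clock genes under the edgeR fit with TMM scaling (black) and under other choices, with small grey points for fits that left out 1 library. Points stay above 0 for all genes and choices but Clock without scaling (−0.55), and fits with the leukocyte covariate lie highest, at 6.81 for Nr1d1. That covariate largely separates the genotypes, so its fits cannot tell genotype from leukocyte level.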

How the data were processed

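Mouse libraries, 5 control and 5 Trpm7 cKO, were grouped by their labels. Per the labels and methods, the authors prepared CEL-Seq2 libraries, extracted identifiers with UMI-tools 1.1.4, trimmed with Trim Galore 0.6.10, aligned to GRCm38 with HISAT2 2.2.1, counted with featureCounts 2.0.6 and removed duplicate identifiers; the deposited values are raw counts of molecules per gene. Annotation release and counting strand are not given in the sources used here. Of 24620 entries, 12 repeated a symbol, and the one of larger total was kept.

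Genes were filtered with filterByExpr (7753 tested), scaled by TMM and fitted with edgeR 4.0.16 (quasi-likelihood, robust, no covariate; R 4.3.3), with Benjamini-Hochberg adjustment over all tested genes, called at 0.05 and, as a further rule, above 1.5 on the log2 scale. Each SE of a fitted log2 fold change was back-calculated, as its absolute value over the square root of the quasi-likelihood F statistic. The code was tested on simulated data. Counting intervals (95%, exact) and limits (3 counts for a count of 0) cover counting error only. Coordinates came from GENCODE annotation of GRCm38 and promoters from RefSeq (GRCm38.p6). Each pair of libraries of a group differed beyond counting noise.

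The 10 clock genes and the lists were chosen with earlier results of these data known. The text names those 10, other core genes and outputs with at least 10 counts, modifiers and glucocorticoid-responsive genes passing the call (at most the 12 of lowest adjusted p), genes overlapping a clock gene's 3′ end, the 3 genes most like Clock and Nr1d1, and Trpm7, apart from 3 genes of these lists that are not reported here. Alternatives were other scalings, no filter, DESeq2 1.42.0, a replicate block, a leukocyte covariate and leaving out libraries.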

Additional observations from a re-analysis of the deposited data

Results flagged for a closer look

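In control replicate 1, Nfil3 had 54.7 normalized CPM, apart from the other 4 controls, which lay between 37.0 and 39.2. Its gap to the nearest library was a larger share of the group's range than Dixon's 95% critical value of 0.71 for 5 samples allows. This was 1 of 50 groups examined, and chance alone flags about 1 in 20.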

How the results depend on the processing

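Of 19 alternatives, 18 left the number of clock genes called within 1.5 times of 9. These genes were selected on this contrast in the same libraries, so nothing is read from that count. Npas2 fell below the filter whenever 1 control library was left out, and 8 clock genes were then tested. The log2 ratios of the arms and of Nr1d1 to Arntl kept their size under 12 of 12 that changed the libraries or the pseudocount (1.87 to 2.04 and 3.03 to 3.57 with 1 library left out). The arm ratio fell to 0.92 without Clock in its sums and 0.86 without Nr1d1, and turned without both (−0.17), alternatives chosen after seeing the data. Without scaling, 5 clock genes, 3 further clock genes higher and 13 lower, 1 glucocorticoid-responsive gene higher, and 380 of all genes higher and 5162 lower were called. With the leukocyte covariate, which largely separates the genotypes, 5 further clock genes were called higher and 0 lower, 3 glucocorticoid-responsive genes higher and 0 lower, and 365 of all genes higher and 123 lower. Without a filter 2881 of all genes were called higher, more genes being tested. The cause of the other changes was not tested. Directions turned without scaling for Clock (−0.55), Nfil3 (−0.11), Usp2 (−0.057), Tsc22d3 (−0.23), Nampt (−0.52), Errfi1 (−0.14), Crebbp (−0.35), Fkbp5 (−0.15) and Sphk2 (−0.29), and with the leukocyte covariate for Tsc22d3 (−0.068) and Trpm7 (1.07). Trpm7, near 0, also turned without Trpm7 cKO replicate 4 (0.052; range over single omissions −0.30 to 0.052) and without replicates 4 and 5 together (0.12), the latter an alternative chosen after seeing the data, as was the unscaled fit of the glucocorticoid-responsive list. Leaving out each library in turn gave 8 to 9 clock genes called, 13 to 17 further clock genes higher and 4 to 5 lower.

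The replicate numbers are shared by both genotypes, but same-numbered libraries did not deviate together (r of −0.04, −0.12, −0.07, 0.06 and 0.18), and 1 of 5 controls correlated best with its own number. With the replicate block, 9 clock genes were called and 15 further clock genes rose. Low counts limit Dbp, Npas2, Per3 and Arntl2.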
